A study of Mus musculus with 6 samples.

Results

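The genes described here are the members of 7 families of developmental transcription factors outside the Hox clusters, namely the Pax, Six-family, Lhx, Tbx, Dlx, Irx and Nkx genes. Members were the rows of the deposited tables whose gene symbol begins with a family name followed by a digit, and rows of a symbol were summed. This gave 61 genes of 20443, with 9 in the Pax family, 6 Six-family genes, 8 in Lhx, 13 in Tbx, 6 in Dlx, 6 in Irx and 13 in Nkx. The RNA came from sorted mTECs (medullary thymic epithelial cells), which show antigens of peripheral organs to developing T cells. The Jmjd3-deficient group was Jmjd3fl/fl-Foxn1-cre (libraries cKO_262, cKO_263 and cKO_265) and the control group was Jmjd3fl/fl without Cre (libraries Con_253, Con_261 and Con_264). All mice were C57BL/6 and 4 weeks old, and both groups carried the floxed alleles. Foxn1-cre is active in thymic epithelium as a whole, and since the controls had no Cre, an effect of the Cre construct and of the loss of Jmjd3 cannot be told apart. The labels do not state that a library number is a mouse, so p-values measure the spread between these libraries.

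Members of these families bind DNA through a homeodomain, a paired domain or a T-box and set the identity of organs and body regions in the embryo. In cells that do not use them, their promoters are classical targets of Polycomb, the repressor complexes that place and read methylation of lysine 27 on histone H3. Jmjd3, whose gene symbol is Kdm6b, removes that methylation. In the thymus, Pax1, Pax9 and Six4 are known from the pharyngeal pouch, the embryonic endoderm from which the thymic epithelium arises, and mTECs are also known to transcribe factors of other organs at low levels.

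The values were FPKM as deposited (fragments scaled by transcript length and by library), with no read counts behind them, so the depth is unknown. Summed FPKM was 582835 to 641060 in the deficient libraries and 461152 to 543156 in the controls. Of 11 listed mTEC markers, Epcam, Krt5, Krt8, Krt14, Aire, Fezf2, H2-Aa and Cldn4 were all above 180 FPKM in every library. Cd80 was at 49.0 to 69.0 FPKM and Tnfrsf11a at 26.0 to 35.1 FPKM. Cd40 was at 189 to 193 FPKM in the deficient libraries and 137 to 151 FPKM in the controls, without overlap (limma adjusted p = 0.190). Summed, the 11 genes overlapped, at 8084 to 9653 FPKM in the deficient libraries and 7909 to 9084 FPKM in the controls. Kdm6b was at 11.1, 11.6 and 8.67 FPKM in the deficient libraries and at 18.1, 17.1 and 9.998 FPKM in the controls, and the groups overlapped (limma adjusted p = 0.418). The deleted part of Kdm6b is not given in the sources used here, so this level does not check the labels. Eif2s3y on the Y chromosome was at 7.88 FPKM in Con_253 and at no more than 0.0409 FPKM in the other 5 libraries, and counts that changed without that control are given below. Summed over 10 measured genes of 11, markers of T cells and thymocytes were 33.6 to 38.8 FPKM in the deficient libraries and 46.1 to 73.4 FPKM in the controls. Those of fibroblasts and mural cells were 110 to 115 FPKM against 119 to 151 FPKM, those of the endothelium 4.77 to 5.27 FPKM against 7.17 to 7.52 FPKM, and those of macrophages and dendritic cells 255 to 295 FPKM against 347.1 to 391.6 FPKM. None of these 4 sums overlapped between the groups. Without the leading gene of each list, an alternative chosen after the values were seen, those of T cells and of the endothelium still did not overlap. Without Rgs5, at least 68.5% of the fibroblast and mural sum, the other 7 genes overlapped at 29.7 to 35.9 FPKM in the deficient libraries and 32.8 to 40.5 FPKM in the controls. Without Lyz2, at least 92.5% of its sum, the macrophage and dendritic genes overlapped at 13.7 to 20.2 FPKM against 19.2 to 29.5 FPKM. No listed marker was at 0 in all libraries, and the part of such cells in the values below was not tested. In RNA from many cells, fewer cells of a type and less RNA per cell cannot be told apart.

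Most members were transcribed weakly, and a few strongly. At or above 1 FPKM were 28, 26 and 25 of the 61 members in cKO_262, cKO_263 and cKO_265 and 27, 29 and 23 in Con_253, Con_261 and Con_264. As a share this was 41.0% to 45.9% in the deficient libraries and 37.7% to 47.5% in the controls, where all genes reached 66.9% to 67.5% and 68.6% to 69.5%. The groups overlapped in the number of members detected, with a mean of 26.3 in each (SD 1.53 in the deficient and 3.06 in the control group, n = 3 each). In all 6 libraries 18 members passed 1 FPKM, 22 passed it in none and 21 in some. Without Con_253, 19 passed it in all 5 libraries and 24 in none. The median member averaged 0.783 FPKM over the 6 libraries, against 3.58 FPKM for the median gene.

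At the more permissive level of 0.5 FPKM, the counts were 42, 36 and 31 in the deficient libraries and 40, 45 and 40 in the controls. There the groups also overlapped, through cKO_262. As shares these were 50.8% to 68.9% against 65.6% to 73.8%. All genes reached 74.5% to 74.9% in the deficient libraries and 75.8% to 77.5% in the controls, without overlap. Members listed at 0 numbered 2, 1 and 5 in the deficient libraries and 3, 2 and 1 in the controls. These were 1.64% to 8.20% against 1.64% to 4.92% of the members, beside 7.98% to 8.77% against 4.18% to 8.87% of all genes. Nkx6-2, a factor of oligodendrocytes and neural tube patterning, was listed at 0 in all 6 libraries, and 0 members were at 0 throughout one group and above 0 throughout the other. A value of 0 can be a failed estimate and is not read as absence.

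**Figure D1:**
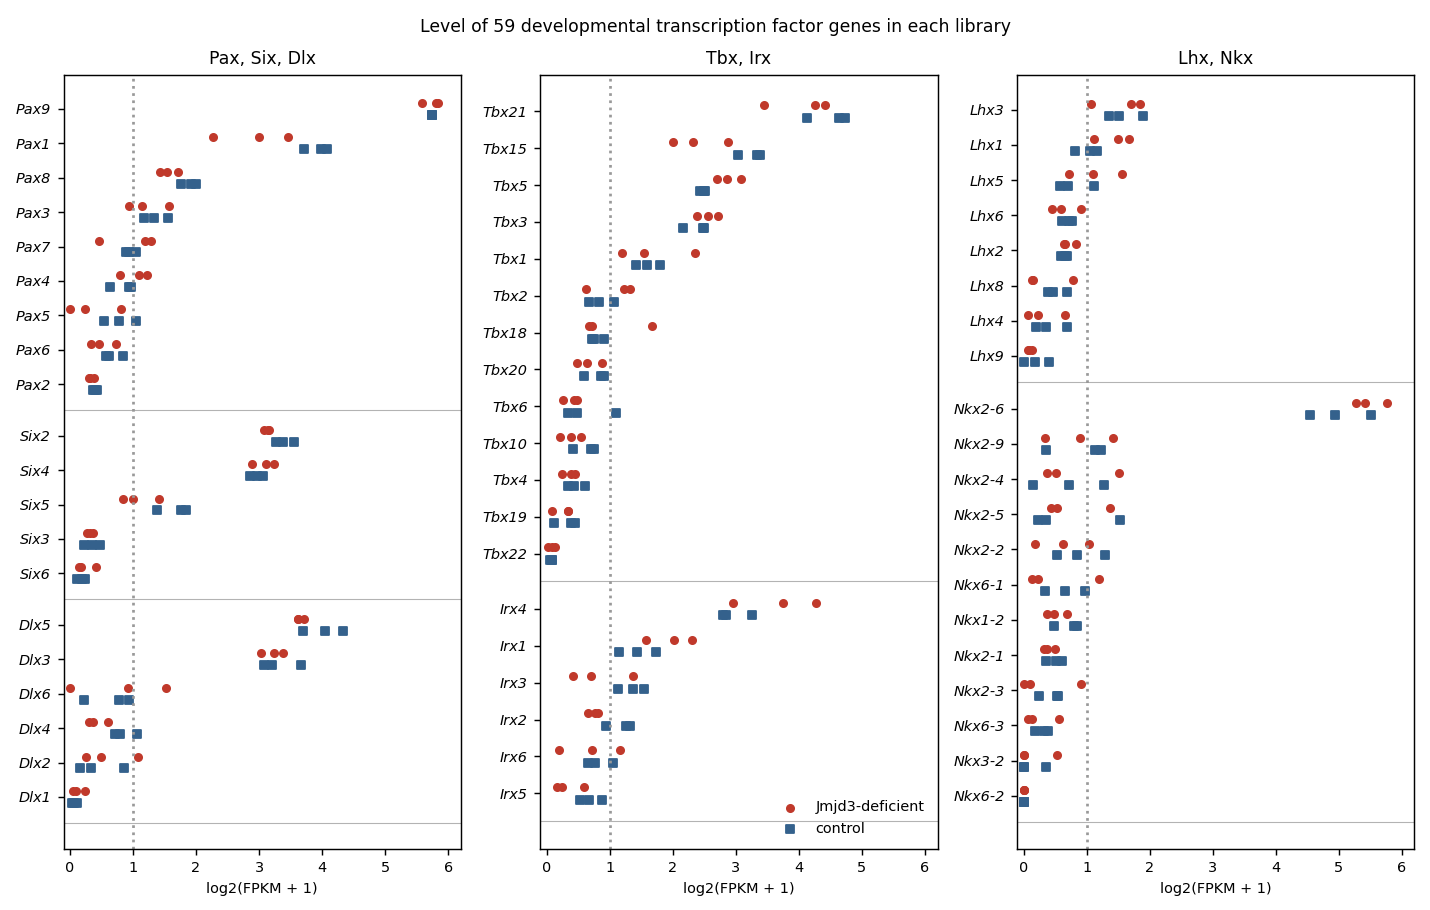
Level of 59 members on the log2(FPKM + 1) scale in the 3 Jmjd3-deficient (circles, upper) and 3 control libraries (squares, lower), by family and ordered by mean level. The dotted line marks 1 FPKM. Pax9 and Nkx2-6 lead, and 22 members stay below the line in all libraries.

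Only 6 members averaged at least 10 FPKM over the 6 libraries, led by Pax9 at 52.6 FPKM and Nkx2-6 at 38.2 FPKM. Tbx21 at 19.02 FPKM, Dlx5 at 13.5 FPKM and Pax1 at 10.6 FPKM were also among them. The Lhx and Irx families had no member at that level.

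Summed over its members, the Pax family reached 73.0 FPKM in cKO_262, 68.0 in cKO_263 and 57.3 in cKO_265, against 76.2 FPKM in Con_253, 75.2 in Con_261 and 72.0 in Con_264, with overlap. Below, values of a group follow this order of libraries. The Six-family sum was 41.6, 34.2 and 37.5 FPKM in the deficient libraries and 48.8, 48.5 and 45.5 FPKM in the controls, and these sums did not overlap. Of the 4 tested Six-family genes, 3 had negative differences and 1 (Six4) a positive one. As FPKM, sums of the other families overlapped between groups. Single genes carried much of some sums. Pax9 averaged 52.7 FPKM in the deficient group and 52.5 FPKM in the controls, Nkx2-6 44.2 and 32.1 FPKM, and Irx4 12.5 and 6.90 FPKM. Irx averaged 17.9 ± 6.64 FPKM in the deficient group and 12.9 ± 2.56 FPKM in the controls, and Nkx 56.7 ± 10.4 FPKM and 42.8 ± 13.2 FPKM (SD, n = 3 each). Tbx averaged 38.3 ± 5.12 FPKM in the deficient group and 45.5 ± 4.86 FPKM in the controls, Dlx 21.9 ± 1.62 FPKM and 26.5 ± 4.22 FPKM, and Lhx 6.83 ± 0.732 FPKM and 5.94 ± 0.675 FPKM. Scaled to equal library sums, the ratio of the Lhx means turned from 1.15 to 0.938 and that of the Six-family means from 0.794 to 0.648. On that scale the groups did not overlap in 3 further families. As a share of a library's summed FPKM, Pax made up 0.00894% to 0.0125% in the deficient libraries and 0.0140% to 0.0156% in the controls. Tbx made up 0.00508% to 0.00728% against 0.00845% to 0.00988%, and Dlx 0.00318% to 0.00401% against 0.00471% to 0.00585%. All members together made up 0.0335% to 0.0475% in the deficient libraries and 0.0491% to 0.0530% in the controls, also without overlap. Summed FPKM of all genes averaged 1.23 times as high in the deficient group. A gene with equal FPKM in both groups therefore has a lower share in the deficient group. The median gene was at 3.21 to 3.37 FPKM in the deficient libraries and 3.57 to 3.69 FPKM in the controls. Its share too was lower in every deficient library.

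**Figure D2:**
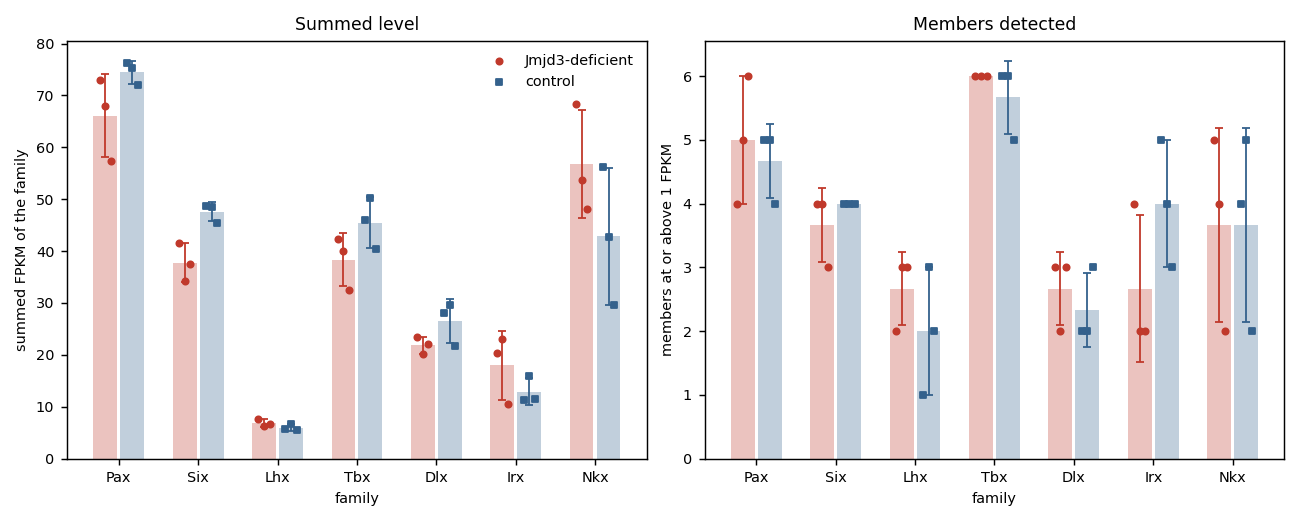
Summed FPKM (left) and number of members at or above 1 FPKM (right) of each family, with Jmjd3-deficient libraries (circles) left of controls (squares), bars at the mean and error bars of 1 SD (n = 3 each). The Six-family sums lie between 34.2 and 41.6 FPKM in the deficient libraries, all below the controls at 45.5 to 48.8 FPKM.

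Jmjd3-deficient mTECs were next compared with control mTECs gene by gene, which asks whether loss of the demethylase goes with a change in these factors. Of the 61 members, 42 (68.9%, against 76.9% of all genes) had a mean of at least 0.5 FPKM and entered the fit over 15720 genes. Of these 42, 0 passed an adjusted p of 0.05 (limma, Benjamini-Hochberg over all genes), where 0.0763% of all tested genes did (0.0191% higher and 0.0573% lower). At an unadjusted p under 0.05, 2 members were higher (among them Tbx5) and 6 lower (among them Pax1, Tbx15, Six5, Irx2 and Dlx4) in the deficient cells. With array weights in the fit, which gave Con_261 the highest weight, 10 of the 42 members passed the adjusted threshold (limma). So did 3025 of all 15720 tested genes. At equal weights, the background shares of all genes were 6.81% for higher and 7.82% for lower values, and the members' 19.0% in both directions stood beside 14.6% of all genes. Without cKO_262 the higher count was 1, without cKO_263 it was 1 and without Con_264 it was 0. The lower count was 2 without cKO_263, 3 without cKO_265, 2 without Con_261 and 4 without Con_253. The matching shares of all genes with a library left out were not counted.

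Complete separation of deficient and control libraries was seen for 2 members with higher levels in the deficient cells (among them Tbx5) and 7 with lower levels (among them Pax1, Tbx15, Irx2, Dlx4, Pax8 and Six2). Among all tested genes it was seen for 9.59% with higher levels and for 11.9% with lower levels, and the members' 21.4% in all lay next to the background of 21.5%. Without Con_253 it was 3 higher and 7 lower, or 23.8% of the members against 31.3% of all tested genes. Differences are on the log2(FPKM + 1) scale, deficient minus control, which understates the change of low genes. The median over the 42 members was -0.044, next to -0.035 over all tested genes, with 19 positive and 23 negative. With 1 library left out, the members' median lay between -0.18 (without cKO_262) and 0.0025 (without Con_261), and it was 0.059 under quantile normalization and 0.037 under median centring. Those scalings also turned the unadjusted counts of 2 higher and 6 lower into 5 and 3, and 6 and 4. The median over all tested genes moved upward with them too, to 0.0083 and 0.046. The shares of all genes at an unadjusted p under 0.05 in those fits were not counted.

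**Figure D3:**
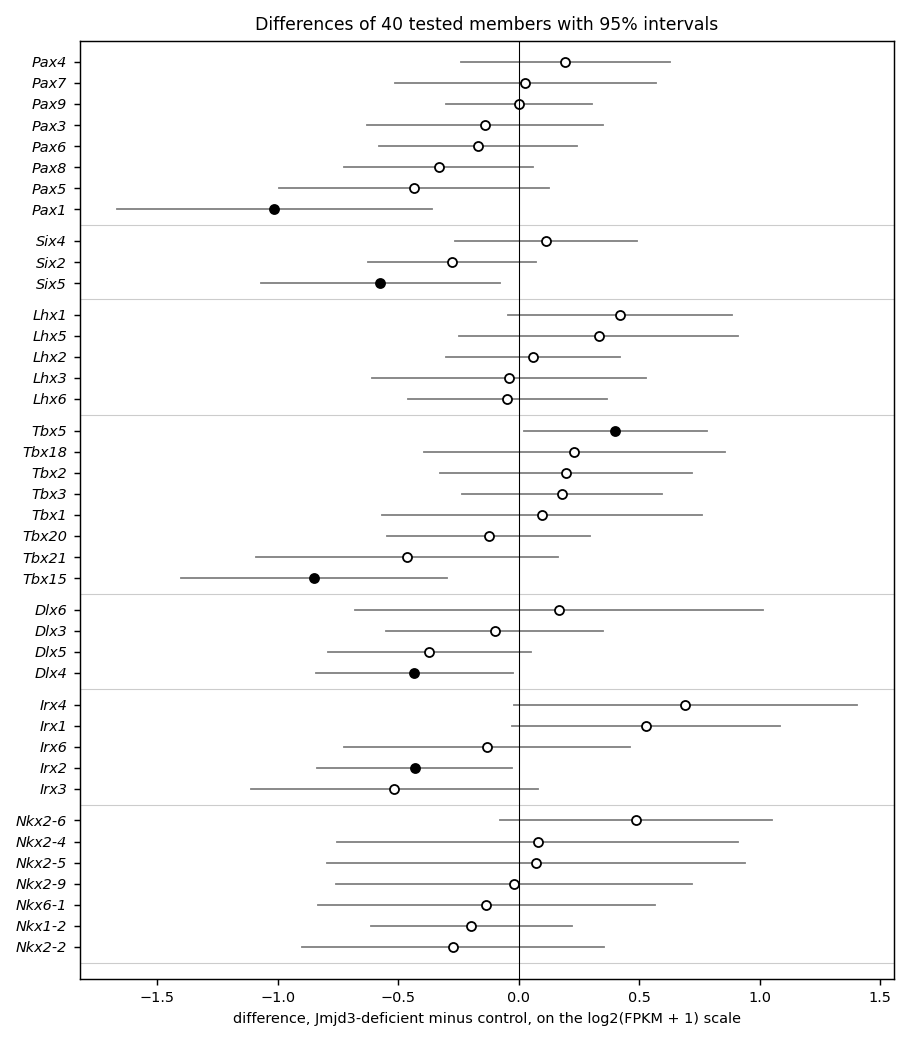
Difference between Jmjd3-deficient and control libraries for 40 of the 42 tested members on the log2(FPKM + 1) scale, with the 95% interval of the limma fit, by family. Filled points have an unadjusted p under 0.05, and none passed after adjustment over all genes. Pax1 lies farthest below 0 (-1.01) and Irx4 farthest above it (0.69).

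Of the factors known from the pharyngeal pouch, Pax9 and Pax1 are close relatives with a paired domain, and both act in the thymus rudiment. Bases just before a start of each gene in RefSeq (build GRCm38.p6, 5′ to 3′, with CG pairs in capitals) are shown because the levels of these relatives differed from each other in the comparison. Both windows hold 250 bases on the plus strand, that of Pax1 at chr2:147364744-147364993 and that of Pax9 at chr12:56695221-56695470. The RefSeq spans of Pax1 and Pax9 begin further upstream, at 147361930 and 56691693, so both windows lie inside those spans.
Pax1: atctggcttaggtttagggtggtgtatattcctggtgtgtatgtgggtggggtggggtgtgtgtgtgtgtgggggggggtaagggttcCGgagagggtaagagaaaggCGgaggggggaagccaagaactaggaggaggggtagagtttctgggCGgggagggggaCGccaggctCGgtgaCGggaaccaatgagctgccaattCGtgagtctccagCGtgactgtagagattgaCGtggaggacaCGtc
Pax9: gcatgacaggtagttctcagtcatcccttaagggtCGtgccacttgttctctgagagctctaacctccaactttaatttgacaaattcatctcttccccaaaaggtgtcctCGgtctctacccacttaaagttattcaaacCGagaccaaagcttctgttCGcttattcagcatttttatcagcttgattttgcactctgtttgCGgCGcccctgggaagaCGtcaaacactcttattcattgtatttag
The Pax1 window holds 10 CG pairs and the Pax9 window 7, where the median of 32851 RefSeq windows of this length is 6 and 92.1% hold at least 1. G and C make up 58.8% of the Pax1 window and 43.6% of the Pax9 window.

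Pax1 lies on chromosome 2 (147364994 to 147375048 in mm10) and codes for protein. It stood at 10.04 FPKM in cKO_262, 6.96 in cKO_263 and 3.80 in cKO_265, against 15.8 FPKM in Con_253, 14.8 in Con_261 and 12.1 in Con_264. All deficient libraries were below all controls, and cKO_265 was the lowest. The mean was 6.94 ± 3.12 FPKM in the deficient group and 14.2 ± 1.92 FPKM in the controls (SD, n = 3 each), and the log2 difference of -1.01 (SE 0.29, 95% interval -1.67 to -0.36) missed the adjusted threshold (limma adjusted p = 0.184). With 1 library left out, or both Con_253 and cKO_265, it lay between -1.29 and -0.62 and the adjusted p between 0.0750 and 0.529.

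Pax9 (chromosome 12, 56695639 to 56711230) was at 56.4, 55.0 and 46.8 FPKM in the deficient libraries and at 52.4, 52.6 and 52.6 FPKM in the controls. The controls were close to each other and lay inside the deficient range. The log2 difference was 0.00 (SE 0.13, 95% interval -0.30 to 0.30, limma adjusted p = 0.997) and -0.11 under quantile normalization. The interval does not hold the difference seen for Pax1. The difference between both genes' responses was not tested.

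Six4 (chromosome 12, 73100259 to 73113245), a homeodomain factor of pouch and muscle, was at 7.64, 6.39 and 8.40 FPKM in the deficient libraries and at 7.32, 6.23 and 6.85 FPKM in the controls. The groups overlapped, and the difference was smaller than its error (log2 difference 0.11, SE 0.17, limma adjusted p = 0.795).

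Eya1, a coactivator that acts in the pouch, was at 5.43 ± 1.14 FPKM in the deficient group and 8.65 ± 1.33 FPKM in the controls (SD, n = 3 each). Its groups did not overlap, but the log2 difference of -0.59 missed the threshold (limma adjusted p = 0.227). Its relative Eya2, at 145 ± 28.5 FPKM against 175 ± 15.2 FPKM, had a log2 difference of -0.29 (limma adjusted p = 0.484). Tbx1, the T-box factor of the pharyngeal arches, was at 4.10, 1.29 and 1.90 FPKM in the deficient libraries and at 1.66, 2.46 and 2.01 FPKM in the controls. Its groups overlapped and the sign rested on cKO_262, since the log2 difference was 0.10 with it and -0.23 without it.

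**Figure D4:**
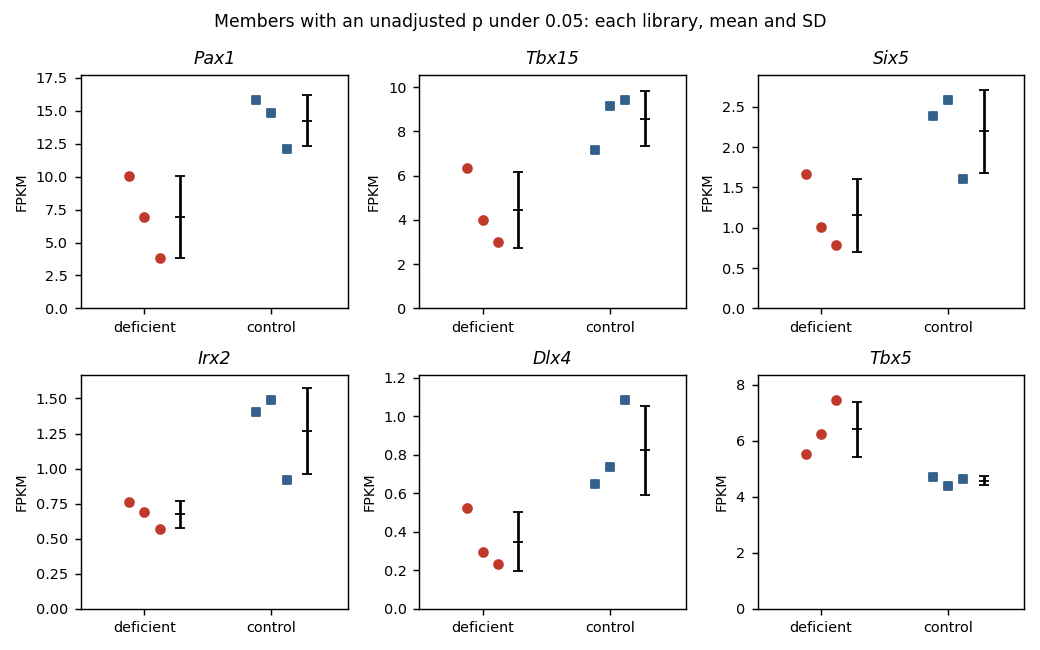
FPKM of 6 of the 8 members with an unadjusted p under 0.05 in each Jmjd3-deficient (circles, left) and control library (squares, right), with the mean and 1 SD beside them (n = 3 each). Six5 is the panel in which the groups overlap, through cKO_262 and Con_264.

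Of the other Six-family genes, Six2 (chromosome 17), which keeps kidney progenitors undifferentiated, was at 7.79, 7.40 and 7.94 FPKM in the deficient libraries and at 10.7, 8.69 and 9.37 FPKM in the controls. The groups did not overlap, with a log2 difference of -0.28 (limma adjusted p = 0.445). Six5, whose human counterpart lies beside the myotonic dystrophy kinase gene, was at 1.67, 1.01 and 0.792 FPKM in the deficient libraries and at 2.39, 2.59 and 1.61 FPKM in the controls. Its groups met, since cKO_262 was just above Con_264 (log2 difference -0.57, SE 0.22, limma adjusted p = 0.273). The eye factors Six3 and Six6 stayed under 0.4 FPKM in every library.

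The other PAX factors are known from thyroid, nervous system, muscle, pancreas and B cells. Pax8, the thyroid and kidney factor, was at 2.28, 1.90 and 1.70 FPKM in the deficient libraries and at 2.78, 2.98 and 2.40 FPKM in the controls, without overlap (log2 difference -0.33, limma adjusted p = 0.417). Thyroid genes were present at low level beside it, as 4 listed genes, among them Tg, Tshr and Slc5a5, summed to 2.80 to 2.96 FPKM in the deficient libraries and 3.36 to 3.89 FPKM in the controls. Without Slc5a5 the other 3 overlapped, at 1.22 to 1.49 FPKM and 0.874 to 1.67 FPKM. Nkx2-1, which works with Pax8 in the thyroid, was at 0.254, 0.419 and 0.291 FPKM in the deficient libraries and at 0.527, 0.428 and 0.285 FPKM in the controls, below the level tested.

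Pax5, the identity factor of B cells, was at 0.756 and 0.182 FPKM in cKO_262 and cKO_263, listed at 0 in cKO_265, and at 1.06, 0.458 and 0.706 FPKM in the controls. The groups overlapped (log2 difference -0.44, limma adjusted p = 0.456). Summed B-cell markers overlapped too, at 43.8 to 60.4 FPKM in the deficient libraries and 42.04 to 54.8 FPKM in the controls. The islet factors Pax4 and Pax6 were at 1.07 ± 0.299 FPKM and 0.429 ± 0.204 FPKM in the deficient group and at 0.806 ± 0.223 FPKM and 0.602 ± 0.159 FPKM in the controls (SD, n = 3 each). The neural crest factor Pax3 and the muscle progenitor factor Pax7 averaged 1.47 and 0.987 FPKM over the 6 libraries, and Pax2, a kidney and eye factor, 0.287 FPKM. All of these overlapped between groups.

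Of the T-box genes, Tbx21 stood highest. It encodes T-bet, the factor of type 1 helper T cells and natural killer cells, and its level was 18.0, 20.4 and 9.85 FPKM in deficient mTECs and 23.8, 25.5 and 16.5 FPKM in the controls. The groups overlapped (log2 difference -0.46, SE 0.27, limma adjusted p = 0.480), and without cKO_265 the difference was -0.16. Beside it, T-cell and thymocyte markers were lower in sum in the deficient libraries (above). Of these genes Lck was the highest on average, at 10.5, 16.8 and 7.65 FPKM in the deficient libraries and 16.4, 10.2 and 12.7 FPKM in the controls. The defining T-cell gene Cd3e was at 1.34, 0.219 and 0.272 FPKM in the deficient libraries and 2.66, 2.07 and 1.92 FPKM in the controls. Cd3d went the other way in its mean, at 2.12, 0.584 and 3.36 FPKM against 2.16, 1.51 and 1.22 FPKM, with overlap. Of the 9 tested genes of the list, 8 had negative differences and 1 a positive one, where 8597 of all 15720 tested genes had negative ones. Without overlap and lower in the deficient libraries were 5 (55.6%), against 11.9% of all tested genes. Summed over 5 genes, natural killer cell markers were 3.38 to 7.38 FPKM in the deficient libraries and 4.56 to 6.86 FPKM in the controls. The part of such cells in the Tbx21 values was not tested.

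Tbx15 (chromosome 3, 99253760 to 99354260), a factor of skeleton and dermis, was at 6.34, 4.02 and 2.99 FPKM in the deficient libraries and at 7.15, 9.13 and 9.44 FPKM in the controls. All deficient libraries were below all controls. The log2 difference of -0.85 (SE 0.24, 95% interval -1.40 to -0.30) did not pass (limma adjusted p = 0.187), and with libraries left out it lay between -1.09 and -0.65. The part of fibroblasts and mural cells, whose markers are given above, in the Tbx15 values was not tested.

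Tbx5 (chromosome 5, 119834663 to 119885218), the factor of forelimb and heart, went the other way. It was at 5.53, 6.24 and 7.46 FPKM in the deficient libraries and at 4.72, 4.39 and 4.63 FPKM in the controls, with no overlap (log2 difference 0.40, SE 0.17, limma adjusted p = 0.317). Tbx3, its neighbour on chromosome 5, was at 4.92, 4.22 and 5.59 FPKM against 4.57, 4.64 and 3.46 FPKM, and overlapped. The remaining T-box genes averaged under 1 FPKM over the 6 libraries, from Tbx2 at 0.976 FPKM to Tbx22 at 0.0536 FPKM. Tbx18, a factor of ureter and heart, was at 2.18 FPKM in cKO_265 and between 0.597 and 0.878 FPKM in the other 5 libraries.

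The Irx genes, which pattern heart, nervous system and limb, lie in a cluster of 3 on chromosome 13 and another of 3 on chromosome 8. In the chromosome 13 cluster the outer genes had higher means and the middle gene a lower mean in the deficient cells. To show starts of neighbours that differed in direction, windows before a RefSeq start of Irx2 and of Irx4 are printed here. The RefSeq spans of both genes begin further upstream, at 72624430 and 73259589. The windows lie at chr13:72628570-72628819 for Irx2 and chr13:73260247-73260496 for Irx4 (GRCm38.p6, plus strand, CG pairs in capitals).
Irx2: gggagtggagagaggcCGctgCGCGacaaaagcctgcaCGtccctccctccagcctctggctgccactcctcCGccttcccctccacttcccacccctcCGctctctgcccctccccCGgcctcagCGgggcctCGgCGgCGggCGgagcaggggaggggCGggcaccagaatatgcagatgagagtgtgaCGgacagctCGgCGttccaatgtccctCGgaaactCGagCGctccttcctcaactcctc
Irx4: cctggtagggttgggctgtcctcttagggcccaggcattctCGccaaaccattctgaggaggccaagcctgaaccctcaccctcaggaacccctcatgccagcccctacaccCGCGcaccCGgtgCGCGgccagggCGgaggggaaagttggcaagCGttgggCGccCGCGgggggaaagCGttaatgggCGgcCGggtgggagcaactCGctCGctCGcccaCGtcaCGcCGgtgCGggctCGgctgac
They hold 19 and 22 CG pairs, more than 80.3% and 85.2% of the RefSeq windows of this length.

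Irx4 (chromosome 13, 73260497 to 73269620), the factor of the heart ventricles, was at 12.4, 18.3 and 6.78 FPKM in the deficient libraries and at 5.96, 8.59 and 6.14 FPKM in the controls. The groups overlapped through cKO_265 (log2 difference 0.69, SE 0.31, limma adjusted p = 0.355). It was 0.39 without cKO_263 and 1.04 without cKO_265. Irx1 was at 3.96, 3.03 and 1.97 FPKM against 1.21, 2.32 and 1.71 FPKM, again with overlap through cKO_265 (log2 difference 0.53, limma adjusted p = 0.362). Irx2 (chromosome 13, 72628978 to 72634194) was at 0.759, 0.693 and 0.571 FPKM in the deficient libraries and at 1.40, 1.49 and 0.918 FPKM in the controls, without overlap (log2 difference -0.43, SE 0.18, limma adjusted p = 0.309).

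On chromosome 8, Irx3 was at 1.58, 0.635 and 0.332 FPKM in the deficient libraries and at 1.19, 1.91 and 1.57 FPKM in the controls. It overlapped through cKO_262 (log2 difference -0.52, limma adjusted p = 0.405), with -0.78 without that library and -0.31 without cKO_265. Irx5 averaged 0.268 ± 0.209 FPKM in the deficient group and 0.626 ± 0.197 FPKM in the controls, and Irx6 0.674 ± 0.551 FPKM and 0.780 ± 0.267 FPKM (SD, n = 3 each).

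Among the Dlx genes, homologues of the fly gene Distal-less, Dlx5 and Dlx3 led. Dlx5, a bone and craniofacial factor, was at 11.2, 11.3 and 12.1 FPKM in the deficient libraries and at 15.5, 19.1 and 11.95 FPKM in the controls, and it overlapped through cKO_265 and Con_264 (log2 difference -0.37, -0.22 without Con_261, limma adjusted p = 0.398). Dlx3, a factor of epidermis, hair and placenta, was at 9.44, 7.21 and 8.44 FPKM against 11.7, 8.24 and 7.49 FPKM, with overlap (log2 difference -0.10, 0.073 without Con_253). Dlx4, its neighbour, was at 0.523, 0.293 and 0.232 FPKM in the deficient libraries and at 0.648, 0.738 and 1.09 FPKM in the controls, with no overlap at these low values (log2 difference -0.43, SE 0.18, limma adjusted p = 0.313). Dlx1, Dlx2 and Dlx6, known from the forebrain and jaw, averaged 0.0697, 0.484 and 0.762 FPKM over the 6 libraries.

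The LIM-homeodomain genes were low throughout. Lhx3, a factor of pituitary and motor neurons, was the only Lhx gene of the 8 at or above 1 FPKM in all 6 libraries, at 2.58, 1.11 and 2.25 FPKM in the deficient libraries and 2.70, 1.84 and 1.55 FPKM in the controls. Lhx1, a factor of kidney and head organizer, was at 1.82, 2.19 and 1.17 FPKM against 0.762, 1.25 and 1.07 FPKM, and overlapped through cKO_265 and Con_261 (log2 difference 0.42, limma adjusted p = 0.388). Of the 5 tested Lhx genes, 0 had an unadjusted p under 0.05 (limma), where 14.6% of all tested genes did.

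In the NK homeobox family, Nkx2-6 stood highest. This gene (chromosome 14), a factor of pharyngeal endoderm and heart, was at 53.1, 41.9 and 37.6 FPKM in the deficient libraries and at 44.4, 29.7 and 22.3 FPKM in the controls. The groups overlapped through Con_253 (log2 difference 0.49, SE 0.25, limma adjusted p = 0.407). Without that control they did not overlap and the difference was 0.74, while without Con_264 it was 0.26.

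A further 11 NK genes averaged under 1 FPKM over the 6 libraries. Nkx2-5, the early heart factor, was at 1.58, 0.350 and 0.437 FPKM in the deficient libraries and at 0.176, 1.88 and 0.276 FPKM in the controls. Nkx6-1, the beta-cell factor, was at 1.301, 0.0950 and 0.170 FPKM against 0.573, 0.965 and 0.263 FPKM. Nkx2-2, another islet factor, was at 0.538, 1.06 and 0.133 FPKM against 0.808, 1.43 and 0.438 FPKM. The groups overlapped in all 3 genes.

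Members that stood in a row on a chromosome were set side by side. By RefSeq spans, 30 of the 61 members had another member within 1 Mb as nearest listed neighbour, in 18 pairs. In 11 pairs both genes were tested, and in 5 of these both differences had the same sign. Without Con_253 the number was also 5, with Dlx3 and Dlx4 then opposite in sign. Tbx3, Tbx5 and Lhx5 on chromosome 5 had log2 differences of 0.18, 0.40 and 0.33, and Irx1, Irx2 and Irx4 of 0.53, -0.43 and 0.69. The groups overlapped for Tbx3, Lhx5, Irx1 and Irx4. Lhx5 was at 0.646, 1.15 and 1.96 FPKM in the deficient libraries and 0.486, 1.16 and 0.634 FPKM in the controls (limma adjusted p = 0.590).

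Levels also differed between neighbours. Pax9, 78.1 kb from Nkx2-9, averaged 52.7 FPKM in the deficient group and 52.5 FPKM in the controls, while Nkx2-9 averaged 0.930 and 0.933 FPKM. Pax1, 166.5 kb from Nkx2-2, averaged 6.94 FPKM in the deficient group and 14.2 FPKM in the controls, against 0.578 and 0.893 FPKM for Nkx2-2.

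**Figure D5:**
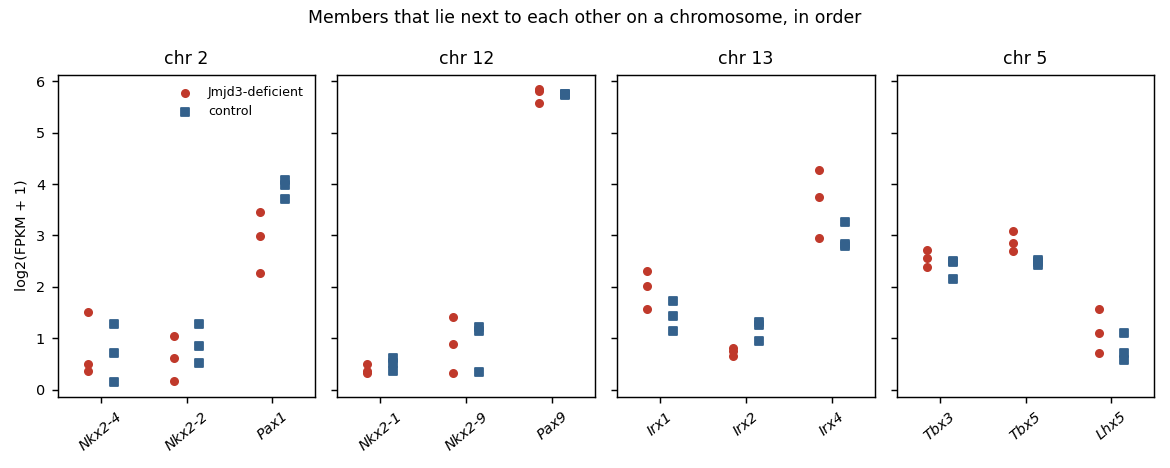
Members of 4 chromosomal groups that lie next to each other, in chromosomal order, on the log2(FPKM + 1) scale in Jmjd3-deficient (circles, left) and control libraries (squares, right). Tbx3, Tbx5 and Lhx5 have positive log2 differences (0.18, 0.40 and 0.33), but the groups overlap for Tbx3 and Lhx5. Irx2 (-0.43) lies between Irx1 (0.53) and Irx4 (0.69), and the groups overlap for Irx1 and Irx4.

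The variation between libraries was wider among the members than among all genes. The median coefficient of variation of the 42 tested members was 0.392 in the deficient group and 0.237 in the controls, against 0.215 and 0.157 for all tested genes. The members were weaker than most genes, and the part of their level in this was not tested. cKO_265 held the lowest value of 17 of the 42 members, while cKO_262 and Con_261 each held the highest value of 11. As shares, these were 40.5% and 26.2% of the members. Of all tested genes, cKO_265 held the lowest value of 30.2%, cKO_262 the highest of 14.0% and Con_261 the highest of 12.5%.

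For 13 members the tables had several rows, each a group of transcripts or starts, and the split between rows was unsteady for some of them. The leading row of Pax6 held 99.7%, 23.96% and 99.1% of its FPKM in cKO_262, cKO_263 and cKO_265 and 0.0277%, 99.9% and 0.0602% in Con_253, Con_261 and Con_264. In 5 members the leading row held over 90% in at least 1 library and under 10% in another (Lhx6, Pax3, Pax6, Tbx4 and Tbx10). That of Tbx3 held 91.8% to 99.996% in the deficient libraries and 44.7% to 85.6% in the controls. With the highest row of each symbol in place of the sum, the log2 difference of Tbx3 was 0.57, against 0.18 for the sum, and that of Pax3 was -0.56, against -0.14. Neither passed (limma adjusted p = 0.307 and 0.378).

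For 7 members the locus in the tables was over 1.3 times as long as the RefSeq gene, from 1.44 times for Dlx1 to 56.6 times for Nkx6-2. Dlx6, Pax6, Nkx2-2, Dlx4 and Nkx2-6 were the others. Whether reads were counted by strand was not given, so reads from overlapping genes on the opposite strand cannot be told apart there.

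Partners and relatives of these families outside the naming rule were read in the same fit. Of 34 listed genes 30 were tested, and 0 passed the adjusted threshold (limma). There were 0 higher and 5 lower at an unadjusted p under 0.05 (16.7%, against 14.6% of all tested genes), and the median was -0.093. The 5 were the LIM-only gene Lmo2, the corepressor gene Tle4, the LIM-homeodomain gene Isl1, Eya1 and the LIM-domain-binding gene Ldb1. Lmo2 was at 6.95, 7.31 and 4.51 FPKM in the deficient libraries and at 14.4, 13.6 and 11.8 FPKM in the controls (log2 difference -0.99, SE 0.20, limma adjusted p = 0.118). Isl1, a relative of the Lhx genes, was at 3.94, 3.46 and 2.26 FPKM against 5.31, 6.33 and 5.65 FPKM (log2 difference -0.70, limma adjusted p = 0.188).

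Genes of the Polycomb machinery and of H3K27 methylation numbered 29 tested of 30, of which 0 passed (limma), with a median of -0.021. At an unadjusted p under 0.05, 1 was higher and 3 were lower (13.8%, against 14.6% of all tested genes). Pcgf1, a subunit of a variant Polycomb complex, was at 56.7 ± 4.23 FPKM in the deficient group and 36.0 ± 7.78 FPKM in the controls (SD, n = 3 each, log2 difference 0.66, limma adjusted p = 0.165). Its relative Pcgf6 was at 2.70 ± 0.356 FPKM and 4.71 ± 0.807 FPKM (log2 difference -0.62, limma adjusted p = 0.192). The chromodomain gene Cbx2 had a log2 difference of -0.48 (limma adjusted p = 0.304).

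A list of lineage factors, chosen for mTECs that mimic other cell types, also held Trp63 and Foxn1, which are not specific to such cells. Its median was -0.31, with 19 of 20 tested. Of these 0 passed, and 0 were higher and 3 lower at an unadjusted p under 0.05 (15.8%, against 14.6% of all tested genes, limma). The 3 were the basal epithelial factor Trp63, the tuft-cell factor Pou2f3 and the muscle factor Myog. Negative differences were found for 17 of the 19, against 23 of the 42 members. Among all 15720 tested genes, 8597 had negative differences and 7123 (45.3%) positive ones.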

How the data were processed

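RNA from sorted mTECs of 3 Jmjd3-deficient and 3 control samples was amplified as cDNA across the whole transcriptome before Illumina sequencing, per the labels' protocols. Such amplification can favour some transcripts by length or GC content. The authors deposited FPKM, as a table for each library, after Bowtie2 2.2.5 and Cufflinks on mm10, per the submitters' processing notes. How strand and scaling were handled, and which annotation was used, is not given in the sources used here. Of 25025 rows, the 44 with symbols that read as dates (25 symbols) were left out. Depth is unknown, so no counting intervals are given, and starts were raised by 1 base.

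A gene entered the fit if it averaged 0.5 FPKM or more. The fit used limma 3.58.1 (R 4.3.3) on log2(FPKM + 1), with trend, two-sided p-values, Benjamini-Hochberg adjustment and no covariates, and was tested on simulated data. The members and lists were chosen with earlier results of these data known. Named members are the 4 highest of each family by mean, the 6 with the smallest p in each direction, a list chosen by role, and members at 0; others are named for order, neighbours or rows. Values of some single genes are not reported here, though counts, sums and medians include them. The promoter windows were chosen after the values were seen. RefSeq windows matched 43 of the 61 members (70.5%, under the 80% needed), so a check of base composition over the families is void. The alternatives were a pseudocount of 0.1, no filter, a stricter filter (5 FPKM), quantile normalization, median centring, the highest row of each symbol, array weights, other detection limits, equal library sums, and libraries left out.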

Additional observations from a re-analysis of the deposited data

How the results depend on the processing

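Among 471 values of 36 named tested members over 14 alternatives, 415 kept their sign and side of the threshold, 46 turned sign and 10 passed it newly. A filter does not alter a difference, so the 36 values with no filter and the 13 with the stricter filter could not turn sign. Nor could members with a single row when the highest row was used. With 1 library left out, the difference of 24 of the 36 moved by over 1.5 times. Array weights gave those 10 calls (among them Dlx5, Irx2, Irx3, Irx4, Pax1, Pax8, Six5, Tbx5 and Tbx15) of 42 tested members. They also called 3025 of all 15720 tested genes and gave a members' median of -0.19. They gave Con_261 a weight of 8.72 against 0.263 to 2.01 elsewhere. They turned Tbx3 to -0.028, Tbx1 to -0.30, Pax7 to -0.34 and Nkx2-5 to -0.74. A pseudocount of 0.1 turned Dlx6 to -0.061 and Pax7 to -0.036. Quantile normalization turned Lhx3 to 0.076, Lhx6 to 0.11, Nkx2-9 to 0.14, Pax9 to -0.11 and Nkx6-1 to 0.043. Median centring turned Lhx3 to 0.039, Lhx6 to 0.034 and Nkx2-9 to 0.062. With libraries left out, the members' median lay between -0.18 and 0.0025. Ranges that crossed 0 were -0.22 to 0.073 for Dlx3, -0.19 to 0.57 for Dlx6, -0.19 to 0.19 for Lhx3, -0.00078 to 0.54 for Lhx5, -0.18 to 0.062 for Lhx6, -0.28 to 0.51 for Nkx2-4, -0.23 to 0.48 for Nkx2-5, -0.30 to 0.37 for Nkx2-9, -0.29 to 0.059 for Nkx6-1, -0.31 to 0.00011 for Pax3, -0.16 to 0.29 for Pax7, -0.048 to 0.083 for Pax9 and -0.23 to 0.34 for Tbx1. The mean number of members detected differed by 0 at 1 FPKM, by -5.33 at 0.5 FPKM and by -3.33 at 0.1 FPKM. Of all genes, 74.5% to 74.9% reached 0.5 FPKM in the deficient libraries and 75.8% to 77.5% in the controls. The shares at 0.1 FPKM were 86.3% to 86.9% and 87.1% to 92.0%. At equal library sums, the ratio of summed FPKM was 0.724 for Pax, 0.648 for the Six-family, 0.938 for Lhx and 0.688 for Tbx. It was 0.676 for Dlx, 1.14 for Irx, 1.10 for Nkx and 0.787 for all members. Summed FPKM of all genes averaged 1.23 times as high in the deficient group, so each of these ratios is lower than that of the FPKM. The Nkx ratio lay between 1.15 and 1.69 with libraries left out. All genes changed numbered 12 in the reported fit, 4 with no filter, 18 after quantile normalization, 23 without cKO_262, 19 without cKO_265, 8 without both cKO_265 and Con_253, and 2 without any single control. The cause of these shifts was not tested. No paired analysis was possible because the groups share no replicate numbers. Precision is limited by 3 libraries a group and unknown depth.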
